A study of Homo sapiens with 12 samples.

Results

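The 10 neuronal cytoskeleton genes NEFL, NEFM, NEFH, INA, MAP2, MAPT, MAP1B, TUBB3, DCX and STMN2 were followed in HEK293, a line derived from human embryonic kidney. The members are a list of names, and their values were taken from the rows of the gene count tables that carry those symbols. Of the 10 genes, 9 had a row among the 37184 rows of experiment 1 and 8 had a row among the 31910 rows of experiment 2. NEFL was matched to no row in either table and was not analysed here, and DCX was matched in experiment 1 alone. Total RNA was sequenced from 12 libraries in 4 groups of 3. The induced groups of both experiments came from a Flp-In T-REx line made from an RBFOX2-deficient HEK293 clone, and they carried HA-Flag-tagged mouse Rbfox1 behind a doxycycline-inducible promoter. RBFOX1 and RBFOX2 are paralogous splicing factors that bind introns beside alternative exons. The line was given doxycycline at 0.5 µg/ml for 2 weeks. In experiment 1 the induced cells were set against uninduced cells of the same line, labelled as not treated. In experiment 2 they were set against parental HEK293 cells, which also received doxycycline. The comparison in experiment 2 therefore joins the clone's derivation, the RBFOX2 deficiency and the transgene, and these cannot be told apart there. In experiment 1 doxycycline itself and the induction of the transgene go together, and they cannot be told apart either. The labels do not say whether the 3 libraries of a group came from separate cultures, so the p-values here speak of variation among libraries, which may be technical.

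Neurons are held in shape by neurofilaments and by microtubules with their associated proteins. Neurofilaments are intermediate filaments built from the light, medium and heavy chains (NEFL, NEFM and NEFH) together with alpha-internexin (INA), and they set the calibre of axons. MAP2 stabilises microtubules in dendrites, tau (MAPT) does so in axons, and MAP1B acts in growing axons. TUBB3 is the neuronal class III beta-tubulin, doublecortin (DCX) binds microtubules in migrating young neurons, and STMN2 is a stathmin that destabilises microtubules in growth cones. HEK293 cells have been described as carrying some neuronal transcripts, neurofilament subunits included.

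The windows upstream of 3 members are shown because INA, MAP1B and MAP2 were all higher in induced cells than in parental cells. Sequences were taken from RefSeq (GRCh38.p14). Windows were searched for 5 of the 10 members, namely INA, MAP1B, MAP2, TUBB3 and DCX. The other members, NEFM among them, were left out of the search. Their absence does not mean that RefSeq lists no transcription start for them. Each window shown holds the 250 bases before the first start listed for the gene. The counts do not tell which start the cells used. Capitals mark matches to 3 motifs, each searched on both strands. GGGCGG is the box bound by SP1. The letters CAGCTG form an E box, which basic helix-loop-helix factors bind. The letters TATAAA form a TATA element. Matches to different motifs may overlap.
INA, chr10:103276888-103277137, plus strand: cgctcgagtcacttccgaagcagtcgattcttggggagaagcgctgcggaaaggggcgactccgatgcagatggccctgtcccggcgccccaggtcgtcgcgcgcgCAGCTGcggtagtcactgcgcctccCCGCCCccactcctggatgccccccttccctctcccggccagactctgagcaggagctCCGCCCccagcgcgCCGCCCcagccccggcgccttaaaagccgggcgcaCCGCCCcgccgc
MAP1B, chr5:72107225-72107474, plus strand: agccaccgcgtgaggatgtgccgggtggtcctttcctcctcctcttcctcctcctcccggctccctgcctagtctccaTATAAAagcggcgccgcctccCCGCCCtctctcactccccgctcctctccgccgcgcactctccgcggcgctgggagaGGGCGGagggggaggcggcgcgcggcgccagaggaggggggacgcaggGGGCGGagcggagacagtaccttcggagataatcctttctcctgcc
MAP2, chr2:209661246-209661495, plus strand: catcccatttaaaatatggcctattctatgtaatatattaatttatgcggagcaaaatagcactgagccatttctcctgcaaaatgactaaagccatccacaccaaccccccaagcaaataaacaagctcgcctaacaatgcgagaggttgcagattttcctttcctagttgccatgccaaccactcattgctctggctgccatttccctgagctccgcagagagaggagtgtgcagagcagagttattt
The INA window held 4 SP1 boxes and 1 E box, the MAP1B window held 3 SP1 boxes and 1 TATA element, and the MAP2 window held none of these motifs. Among all 35116 windows of the same length, 42.6% held GGGCGG, 14.0% held CAGCTG and 10.7% held TATAAA on either strand. The INA window had 30 CG dinucleotides, the MAP1B window 25 and the MAP2 window 4, against a median of 11 over all windows. TCAGCACC and GGACAGC are parts of the element bound by the neuronal gene repressor REST. None of the windows listed for INA, MAP1B, MAP2, TUBB3 or DCX held either of them. Of all windows, 1.32% held TCAGCACC and 4.76% held GGACAGC, so their absence from a window is the common case. These matches describe the letters of the windows only.

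Each library held between 34025315 and 55298749 reads assigned to genes. Levels are given as CPM, which are read counts relative to effective library size, scaled within each experiment, and levels of different genes were not compared because no transcript lengths were used. Reads assigned to RBFOX1 averaged 39.2 ± 0.394 CPM in induced cells and 3.77 ± 0.584 CPM in uninduced cells of experiment 1 (SD, n = 3 each), and 40.2 ± 0.704 CPM in induced cells and 0 CPM in all 3 parental libraries of experiment 2. RBFOX2 reads averaged 53.7 ± 2.78 CPM in induced cells and 53.7 ± 3.90 CPM in uninduced cells of experiment 1, and 50.8 ± 4.76 CPM in induced cells and 183 ± 0.0715 CPM in parental cells of experiment 2. Reads of MT-RNR2, a ribosomal RNA of mitochondria, made up between 21.7% and 24.1% of the gene reads in the libraries of experiment 1. In those of experiment 2 they made up between 0.0286% and 0.0638%. The make-up of the counted reads thus differed between the experiments, and the cause was not tested.

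Within the inducible line, doxycycline went with lower MAP2 and slightly lower MAPT, and no tested member was called higher. Of the 9 members with a row, 6 passed the filter on low counts and 2 of these 6 were called lower at an adjusted p under 0.05 (edgeR's quasi-likelihood test, Benjamini-Hochberg adjustment over all 18978 genes tested). Among all genes tested, 20.9% were called in either direction and 10.4% were called lower. The median log2 fold change was -0.34 over the 6 members, NEFM and TUBB3 with few reads among them, and 0.0026 over all genes tested. The induced and uninduced libraries did not overlap for 4 of the 6 members, and they did not overlap for 40.1% of all genes tested. NEFM was among the 4, and it passed the filter mainly through the uninduced libraries, where it was higher. Against parental cells the pattern was another one: MAP2, MAP1B and INA were higher, and NEFM, NEFH and MAPT were lower. Of the 8 members with a row in experiment 2, 7 passed the filter, 3 were called higher and 3 lower. Over these 7 the median log2 fold change was -0.40, which is the value of TUBB3, the member not called. Over all genes tested there it was -0.0091. In that comparison 65.0% of all 17945 genes tested were called, 32.1% higher and 32.9% lower, and the groups did not overlap for 6 of the 7 members and for 68.0% of all genes. A call in experiment 2 is thus the common case among all genes. In these bulk samples, a change in the share of cells that express a gene and a change in RNA per cell cannot be told apart.

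**Figure D1:**
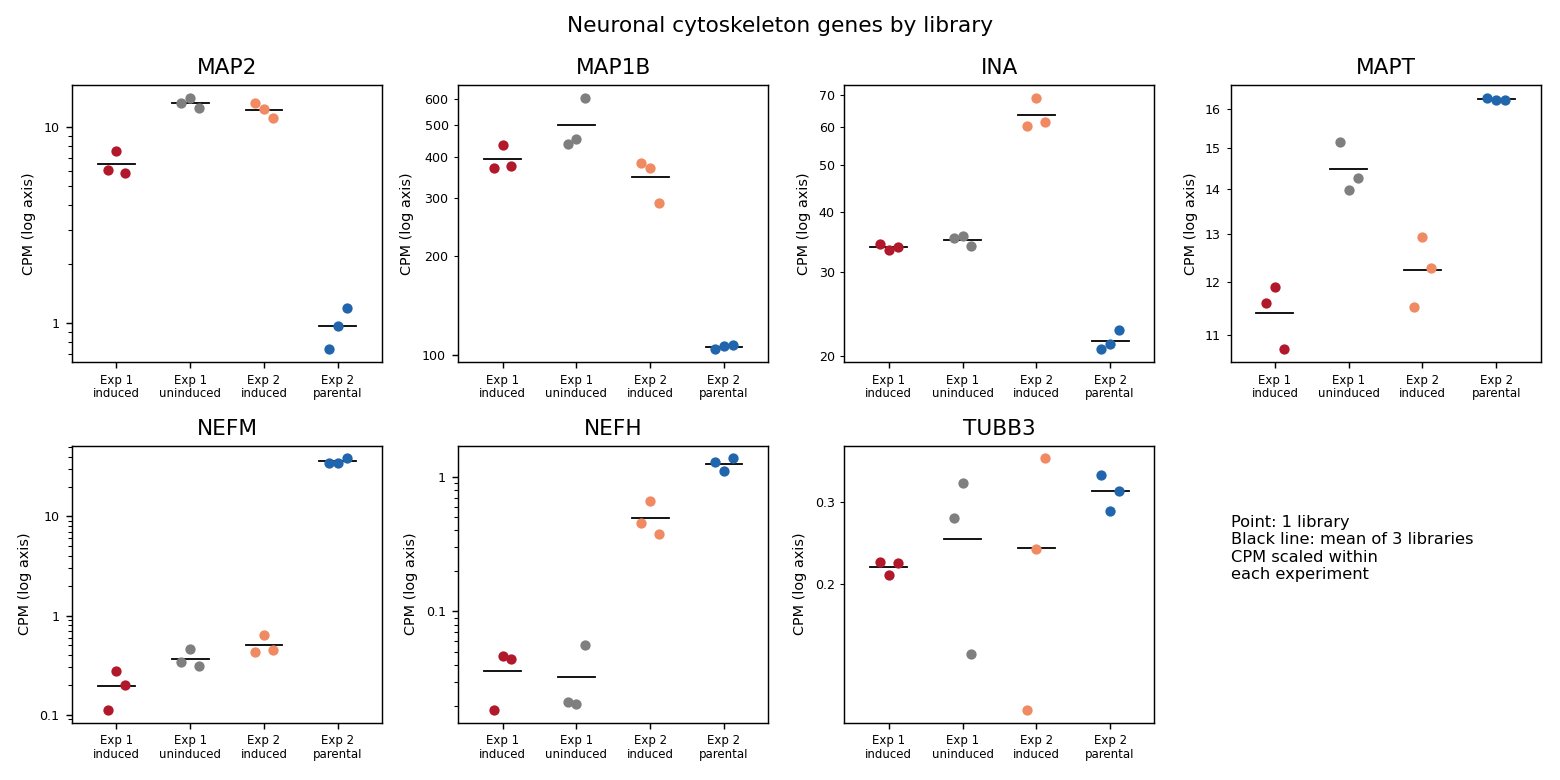
Levels of the 7 members tested in at least 1 experiment, in CPM on a log axis, by group (experiment 1 induced and uninduced, experiment 2 induced and parental); each point is 1 library and the black line is the mean of 3. NEFM stood at 34.6 CPM or more in the parental libraries and under 1 CPM in the other 9 libraries, and MAP2 was lowest in the parental libraries.

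Among the neurofilament subunits, NEFM showed the largest change of any member. NEFM, the medium chain, had 0.426, 0.633 and 0.453 CPM in induced cells of experiment 2, against 34.7, 34.6 and 38.7 CPM in parental cells. These levels rest on 16, 24 and 17 reads in induced cells, against 1412, 1567 and 1948 reads in parental cells, and the groups lay far apart. The log2 fold change was -6.15 (SE 0.171, adjusted p 1.05e-19), a 71.0-fold lower level in induced cells. In experiment 1 NEFM was near its lower limit in every library, with 6, 12 and 9 reads in induced cells, against 16, 22 and 11 in uninduced cells. All induced libraries lay below all uninduced ones, by a narrow gap between the highest induced one at 0.278 CPM and the lowest uninduced one at 0.309 CPM, and the difference was not called (log2 fold change -0.95, SE 0.341, adjusted p 0.0958). In the fit of experiment 1 alone NEFM passed the filter mainly through the uninduced libraries, where it was higher. That difference therefore carries no weight of its own. With all 12 libraries in one fit NEFM was called lower in experiment 1 (adjusted p 0.0334), on the same few reads.

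NEFH, the heavy chain, had 0.453, 0.659 and 0.373 CPM in induced cells of experiment 2, against 1.28, 1.10 and 1.37 CPM in parental cells. All 3 induced libraries were below all 3 parental libraries, with a log2 fold change of -1.33 (SE 0.237, adjusted p 4.51e-04). In experiment 1 NEFH had 1, 2 and 2 reads in induced cells, against 1, 1 and 2 reads in uninduced cells, and it did not pass the filter. A change in NEFH was not detectable at that depth.

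INA, alpha-internexin, moved the other way from NEFM against parental cells. It had 60.1, 69.0 and 61.4 CPM in induced cells of experiment 2, against 20.7, 21.2 and 22.7 CPM in parental cells. The groups did not overlap and the log2 fold change was 1.56 (SE 0.0729, adjusted p 9.23e-15). In experiment 1 INA had 34.3, 33.3 and 33.8 CPM in induced cells, against 35.2, 35.6 and 34.0 CPM in uninduced cells. These groups overlapped, and the log2 fold change of -0.047 was not called (SE 0.0235, adjusted p 0.567).

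MAP2, the dendritic microtubule stabiliser, was called in both experiments, in opposite directions. In experiment 1 it had 6.10, 7.55 and 5.86 CPM in induced cells, against 13.4, 14.2 and 12.6 CPM in uninduced cells. Every induced library was below every uninduced one, and the log2 fold change was -1.05 (SE 0.123, adjusted p 6.01e-04), a 2.07-fold lower level. In experiment 2 MAP2 had 13.4, 12.5 and 11.2 CPM in induced cells, against 0.738, 0.971 and 1.19 CPM in parental cells. The groups were far apart, with a log2 fold change of 3.65 (SE 0.205, adjusted p 5.11e-15), a 12.6-fold higher level in induced cells.

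MAP1B, which acts in growing axons, followed MAP2 against parental cells. It had 384, 370 and 290 CPM in induced cells of experiment 2, against 104, 106 and 107 CPM in parental cells. All induced libraries were above all parental ones and the log2 fold change was 1.72 (SE 0.128, adjusted p 1.70e-14). In experiment 1 MAP1B had 370, 436 and 375 CPM in induced cells, against 439, 454 and 607 CPM in uninduced cells. The groups did not overlap, the uninduced replicate 3 stood above the rest, and the log2 fold change of -0.34 was not called (SE 0.167, adjusted p 0.0753). It was called lower with DESeq2 (adjusted p 0.0228), with no filter on low counts (adjusted p 9.64e-06) and with all 12 libraries in one fit (adjusted p 0.0290). Without uninduced replicate 3 the log2 fold change was -0.18 (adjusted p 0.0829), and without induced replicate 1 it was -0.30 (adjusted p 0.232).

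MAPT, the gene of tau, was the member that was called lower in both experiments, and its change was small in each. In experiment 1 it had 11.6, 11.9 and 10.7 CPM in induced cells, against 15.2, 14.0 and 14.3 CPM in uninduced cells, with no overlap. The log2 fold change was -0.34 (SE 0.0562, adjusted p 0.0127), and the call was lost without induced replicate 1 (adjusted p 0.0537) and without induced replicate 3 (adjusted p 0.0644). In experiment 2 MAPT had 11.5, 12.9 and 12.3 CPM in induced cells, against 16.3, 16.2 and 16.2 CPM in parental cells. The groups did not overlap there either, and the log2 fold change was -0.41 (SE 0.0483, adjusted p 1.38e-04). The antisense gene MAPT-AS1 had 1 read over all libraries of experiment 1.

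TUBB3, class III beta-tubulin, was close to the lower limit of detection in all 4 groups. It had 12, 9 and 10 reads in induced cells of experiment 1, against 13, 16 and 5 in uninduced cells. In experiment 2 it had 4, 9 and 14 reads in induced cells, against 14, 13 and 16 in parental cells. The groups overlapped in both experiments, and neither the log2 fold change of -0.24 (SE 0.311, adjusted p 0.678) nor that of -0.40 (SE 0.426, adjusted p 0.467) was called. TUBB3 lies beside MC1R, which had 40 to 97 reads per library, and reads of near-identical tubulin genes could be split in counting, so the TUBB3 counts are uncertain.

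The markers of young neurons DCX and STMN2 were at or near 0. DCX had 0, 1 and 1 reads in induced cells of experiment 1, against 0 reads in each uninduced library, where a count of 0 allows up to 3 reads. STMN2, the growth cone stathmin, had 1, 0 and 4 reads in induced cells and 0, 1 and 3 reads in uninduced cells of experiment 1. In experiment 2 it had 4, 0 and 1 reads in induced cells, against 3, 3 and 0 reads in parental cells. Neither gene passed the filter, and no change was detectable at this depth.

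**Figure D2:**
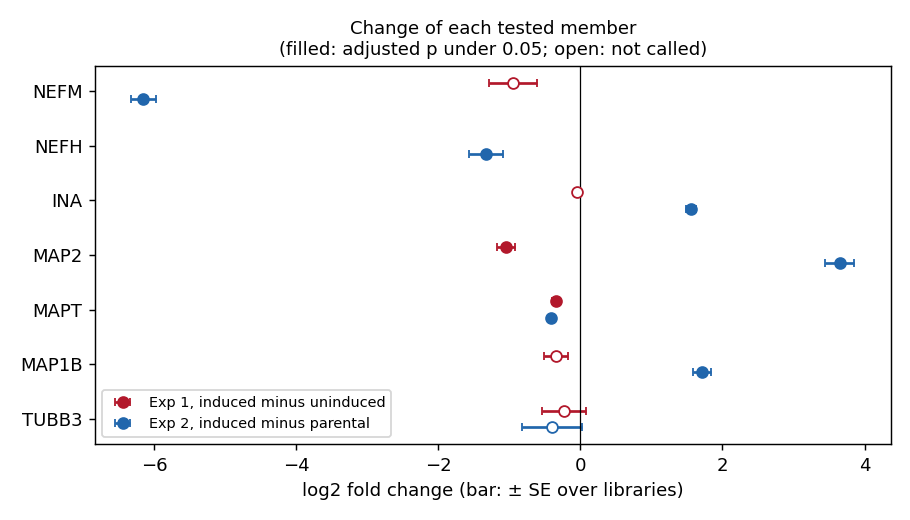
Log2 fold change of each tested member (x axis) with ± SE over libraries, for induced minus uninduced cells of experiment 1 (red) and induced minus parental cells of experiment 2 (blue); filled points had an adjusted p under 0.05. MAP2 lies at -1.05 in experiment 1 and at 3.65 in experiment 2, while both MAPT values lie between -0.41 and -0.34.

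The changes of the members in both experiments were then set against each other in one fit over all 12 libraries and the 19942 genes tested in it. The difference, the change in experiment 2 minus that in experiment 1, was called for 4 of 7 members, 3 higher and 1 lower, and for 52.2% of all genes tested, 25.9% higher and 26.3% lower. It was positive for MAP2 (log2 4.70, SE 0.233, adjusted p 5.15e-13), MAP1B (log2 2.06, SE 0.207, adjusted p 4.43e-09) and INA (log2 1.61, SE 0.0733, adjusted p 4.02e-11). It was negative for NEFM (log2 -5.19, SE 0.378, adjusted p 1.72e-08). The difference was not called for NEFH (log2 -1.52, adjusted p 0.186), MAPT (log2 -0.064, adjusted p 0.635) or TUBB3 (log2 -0.17, adjusted p 0.842). NEFH had 5 reads in induced and 4 in uninduced cells of experiment 1 and entered this fit through experiment 2, so its value says little. The controls of the experiments differ in line and in doxycycline, and experiment and library preparation cannot be told apart from the difference.

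The levels of all 4 groups can be set side by side on the scale of that fit. The scale does not remove other differences between the experiments, such as that in MT-RNR2 reads. Rankings of groups across experiments are therefore descriptions. MAP2 averaged 6.97 ± 0.947 CPM in induced and 14.4 ± 0.833 CPM in uninduced cells of experiment 1, and 11.5 ± 0.962 CPM in induced and 0.901 ± 0.208 CPM in parental cells of experiment 2 (SD, n = 3 each). Parental cells were the low group for MAP2, and the 3 groups of the inducible line were all higher. MAP1B averaged 422 ± 36.9 CPM in induced and 536 ± 101 CPM in uninduced cells of experiment 1, and 324 ± 45.8 CPM in induced and 98.7 ± 1.30 CPM in parental cells of experiment 2. INA averaged 36.2 ± 0.753 CPM in induced and 37.4 ± 0.812 CPM in uninduced cells of experiment 1, and 59.2 ± 4.26 CPM in induced and 20.1 ± 0.870 CPM in parental cells of experiment 2. Parental cells were again lowest for both genes. NEFM averaged 0.210 ± 0.0881 CPM in induced and 0.395 ± 0.0817 CPM in uninduced cells of experiment 1, and 0.470 ± 0.103 CPM in induced and 33.6 ± 2.06 CPM in parental cells of experiment 2. Both groups of experiment 1 and the induced cells of experiment 2 averaged under 1 CPM of NEFM. The uninduced and parental cells were not tested against each other here because they belong to different experiments.

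Induced cells of experiment 2 were also set against induced cells of experiment 1, which are the same line under the same treatment. In that comparison 68.9% of all genes were called, 34.8% higher and 34.2% lower in experiment 2, and 5 of the 7 members tested were called, 4 higher and 1 lower. The groups did not overlap for 5 members and for 73.9% of all genes. NEFH, 1 of the 4, had 17, 25 and 14 reads in induced cells of experiment 2, against 1, 2 and 2 reads in induced cells of experiment 1. It did not pass the filter in experiment 1 and entered this fit through the libraries of experiment 2, where it is high, so its fitted log2 fold change of 3.51 (SE 0.276) rests on 5 reads in experiment 1 and its call carries no weight of its own. NEFM (log2 fold change 1.19, adjusted p 0.00197), MAP2 (log2 fold change 0.73, adjusted p 1.63e-05) and INA (log2 fold change 0.71, adjusted p 6.96e-09) were also higher in experiment 2. MAP1B was lower there (log2 fold change -0.38, adjusted p 0.00520), and with libraries scaled by their totals it was not called (log2 fold change -0.18, adjusted p 0.227). MAPT and TUBB3 were not called. The part of MT-RNR2 abundance in these values was not tested.

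Related genes were counted from lists of names, which were chosen with earlier results of these data known. Among 11 tested intermediate filament genes outside the members, 1 rose and 3 fell in experiment 1, 36.4% called beside 20.9% of all genes. NES, the nestin of neural progenitors, had 3.99 ± 0.0631 CPM in induced and 8.66 ± 0.205 CPM in uninduced cells (log2 fold change -1.12, adjusted p 2.18e-04). PRPH, the peripherin of peripheral neurons, had 2.43 ± 0.0819 CPM in induced and 4.27 ± 0.731 CPM in uninduced cells (log2 fold change -0.82, adjusted p 0.00503). Against parental cells 2 of 12 rose and 7 fell, where 65.0% of all genes were called, and the median log2 fold change was -0.42, beside -0.0091 over all genes tested. NES had 6.79 ± 0.289 CPM in induced and 32.0 ± 1.80 CPM in parental cells (log2 fold change -2.24). GFAP, the filament of astrocytes, had 1 read over the induced libraries and 279 over the parental ones, and the muscle filament partner SYNM was also lower (log2 fold change -1.54). PRPH was higher there (log2 fold change 0.78, adjusted p 0.00773).

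Tubulins other than TUBB3 rose more often than they fell in experiment 1, 7 of 13 tested against 1 that was lower, where 10.5% of all genes were called higher and 10.4% lower, and their median change was 0.26 on the log2 scale, beside 0.0026 over all genes. TUBB4B had 123 ± 4.68 CPM in induced and 78.2 ± 1.54 CPM in uninduced cells (log2 fold change 0.65, adjusted p 3.16e-04), and TUBA1C (0.55) and TUBB2A (0.48) also rose on that log2 scale. TUBE1, epsilon-tubulin of centrioles, fell (log2 fold change -0.62). Against parental cells 2 of 14 were higher and 8 lower, 71.4% called beside 65.0% of all genes, with a median of -0.18; TUBB4A, a brain beta-tubulin, had 1.81 ± 0.181 CPM in induced and 5.61 ± 0.189 CPM in parental cells (log2 fold change -1.63). How reads of near-identical tubulin copies were counted is not given in the sources used here, so these values are uncertain as well.

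Among 25 other microtubule-associated genes, 2 rose and 8 fell in experiment 1, 40.0% called beside 20.9% of all genes. MAP6, which makes microtubules stable in the cold, had 6.07 ± 0.109 CPM in induced and 10.2 ± 1.38 CPM in uninduced cells (log2 fold change -0.74, adjusted p 0.00228). Against parental cells 15 of 25 rose and 7 fell, a share of 88.0% called beside 65.0% of all genes. MAP7D2, a kinesin-recruiting microtubule protein, had 55.2 ± 0.608 CPM in induced and 0.714 ± 0.0865 CPM in parental cells (log2 fold change 6.26, adjusted p 1.45e-21). MAP6 was higher there (log2 fold change 1.25), and MAPRE2, a microtubule plus-end protein, was lower (log2 fold change -0.96). Among 9 tested stathmin and doublecortin relatives, 1 rose and 1 fell in experiment 1: STMN1, the widely expressed stathmin, at a log2 fold change of 0.57, and DCLK1, a doublecortin-like kinase, at -0.30. Against parental cells 5 of 9 rose and 1 fell, 66.7% called beside 65.0% of all genes, with DCLK1 at 15.9 ± 1.46 CPM in induced and 4.16 ± 0.109 CPM in parental cells (log2 fold change 1.94, adjusted p 3.67e-13).

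**Figure D3:**
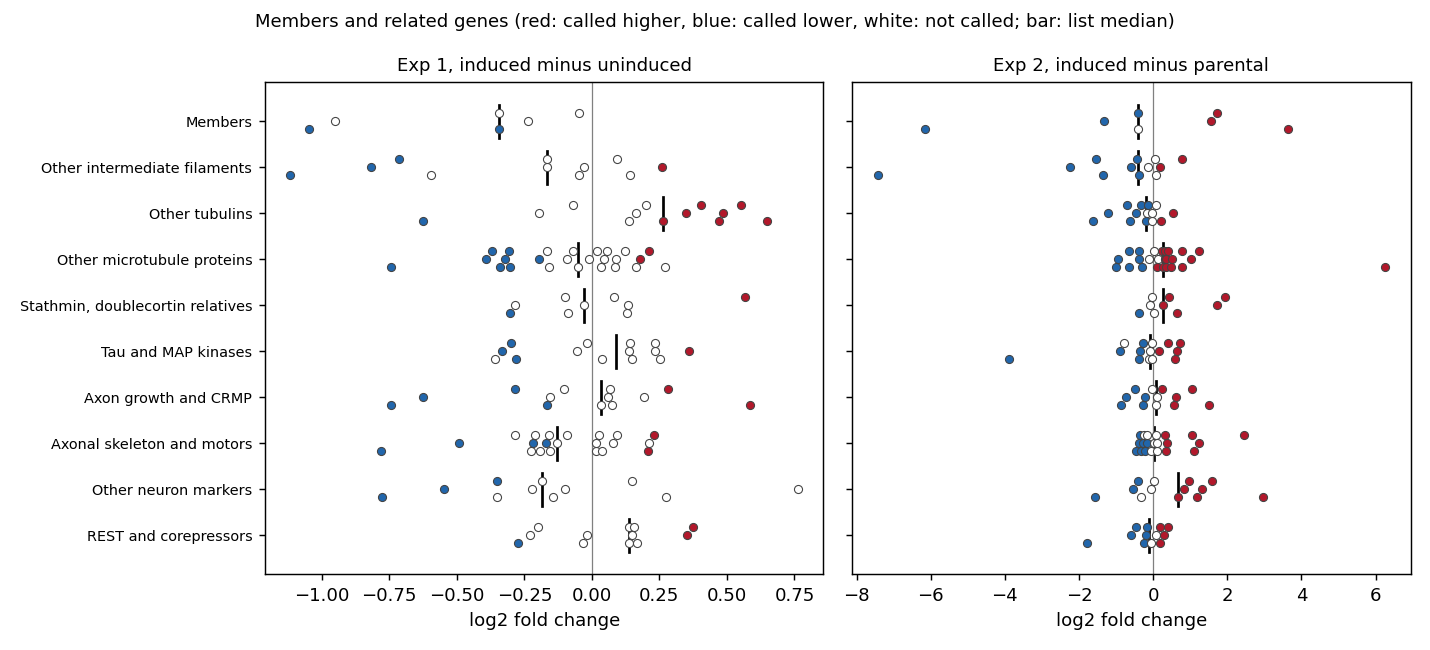
Log2 fold changes (x axis) of the members and of lists of related genes (rows), for induced minus uninduced cells of experiment 1 (left) and induced minus parental cells of experiment 2 (right); red was called higher, blue lower, white not called, and the black bar is the list median. The other tubulins centre at 0.26 in experiment 1 and at -0.18 in experiment 2.

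Of all genes, 20.9% were called in experiment 1 and 65.0% in experiment 2, which is the background for the counts that follow. Kinases and phosphatases of tau and the MAPs, 14 tested in experiment 1, held 1 that rose and 3 that fell. Among 15 tested against parental cells 5 rose and 5 fell. MARK1 rose most (log2 fold change 0.74), and CDK5, a neuronal tau kinase, was lower (log2 fold change -0.91). TTBK1, a tau tubulin kinase, was lowest, with 0.0443 ± 0.0555 CPM in induced and 0.699 ± 0.133 CPM in parental cells. It passed the filter through the parental libraries, where it is high, so the size of its log2 fold change of -3.89 is uncertain. Axon growth genes, 13 tested in each experiment, had 2 that rose and 4 that fell in experiment 1 and 5 that rose and 5 that fell against parental cells. L1CAM, an axonal adhesion molecule, was lower in experiment 1 (log2 fold change -0.63) and higher against parental cells (log2 fold change 1.51). Motors and membrane skeleton genes, 21 tested, had 2 that rose and 4 that fell in experiment 1 and 7 in each direction in experiment 2. That is 66.7% called in experiment 2, close to the share of all genes, and the kinases also stood at 66.7%. Among the motors, KIF1A, an axonal transport motor, had 198 ± 9.64 CPM in induced and 83.5 ± 5.67 CPM in parental cells (log2 fold change 1.24). REST and its corepressors, 12 tested, had 2 that rose and 1 that fell in experiment 1, and 4 that rose and 6 that fell in experiment 2, where RCOR2 had the lowest value (log2 fold change -1.79). The share called in experiment 2 was 76.9% for the axon growth genes and 83.3% for REST and its corepressors. In experiment 1 the shares were 28.6% for both the kinases and the motors and 46.2% for the axon growth genes.

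Neuron markers outside the cytoskeleton showed mixed directions. In experiment 1, 0 of 11 tested rose and 3 fell, and the summed level of the list ranged from 316 to 330 CPM in induced and from 290 to 343 CPM in uninduced cells. Against parental cells 7 of 13 rose and 3 fell, and the summed level ranged from 583 to 619 CPM in induced and from 326 to 343 CPM in parental cells. UCHL1 made up most of that sum, with a mean of 479 CPM in induced and 243 CPM in parental cells. SNAP25, a synaptic vesicle fusion protein, had 5.03 ± 0.395 CPM in induced and 0.640 ± 0.0464 CPM in parental cells (log2 fold change 2.97, adjusted p 5.00e-12). SYP, the vesicle protein synaptophysin, was lower there (log2 fold change -0.55). Within the list the levels ran from TH, ELAVL3 and ELAVL4, with at most 11 reads in any group, through RBFOX3, with 100 to 208 reads per group, to UCHL1, with 27347 to 54085 reads per group. Glial markers had 5 of 7 tested higher and 1 lower against parental cells, with a summed level from 137 to 142 CPM in induced and from 89.6 to 92.8 CPM in parental cells. Most of the glial sum was SLC1A3, with a mean of 120 CPM in induced and 77.8 CPM in parental cells. Of the other marker lists, fibroblast markers had 0 of 4 higher and 3 lower against parental cells, and their summed level ranged from 3.71 to 4.06 CPM in induced and from 9.71 to 11.5 CPM in parental cells. Haematopoietic markers had 0 of 3 higher and 1 lower, with sums from 2.16 to 3.01 CPM in induced and from 3.29 to 4.20 CPM in parental cells. The renal and epithelial markers of HEK293 had 1 of 9 higher and 7 lower there. EPCAM was the higher one, with a mean of 26.7 CPM in induced and 2.55 CPM in parental cells. CDH2 was present in all 4 groups at averages of 81.7 CPM or more. Other markers of that list were low: PAX2 averaged from 1.10 to 2.22 CPM and CDH1 from 0.672 to 2.80 CPM over the 4 groups. LHX1 had no row. In experiment 1 the glial markers had 1 of 7 higher and 3 lower, fibroblast markers 2 of 3 lower, haematopoietic markers 1 of 2 lower and HEK293 markers 2 of 9 lower. The part of these markers in the members' values was not tested.

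The genes next to the members along the chromosomes gave a local background. Of the 5 tested genes on each side, placed in RefSeq order, those around NEFM had a median log2 fold change of 0.22 against parental cells, from -0.45 to 1.30, beside -6.15 for NEFM. Those around MAP2 had a median of -0.12, with 0 called higher and 3 lower, beside 3.65 for MAP2. The lens crystallin gene CRYGD, 1 of them, was far lower at -7.85. Its reads are not given here, so the size of that change is uncertain. Those around MAP1B had a median of 0.18 with 5 called higher, and those around INA had a median of -0.17 with 2 higher and 4 lower. Around NEFM 5 were called higher and 2 lower. Of all genes tested in that comparison, 32.1% were called higher and 32.9% lower.

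**Figure D4:**
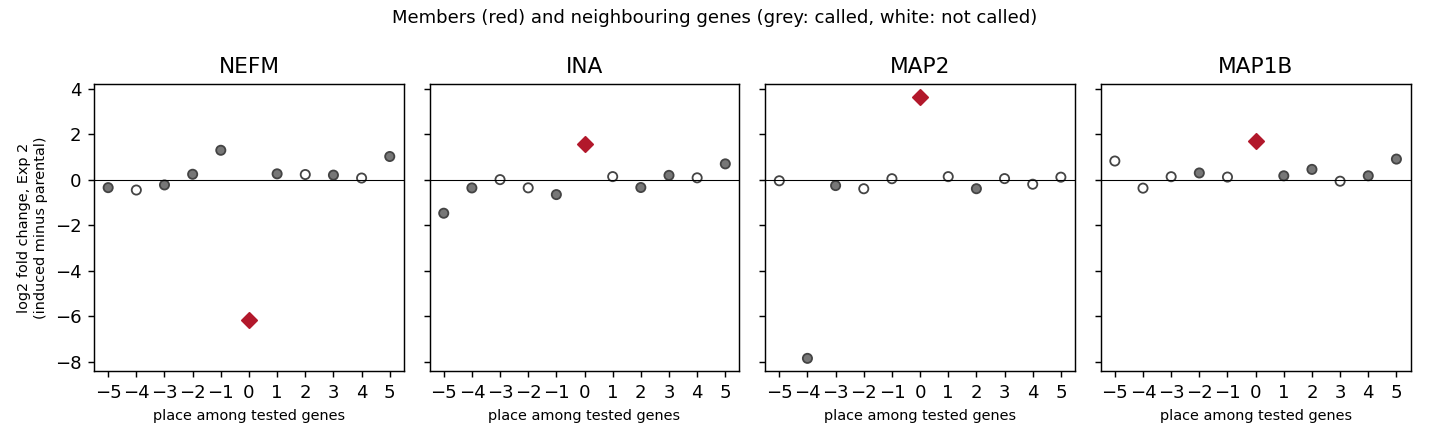
Log2 fold change in experiment 2 (induced minus parental, y axis) of 4 members (red diamonds, at place 0) and of the 5 tested genes on each side in RefSeq gene order (circles; grey was called, white was not). The NEFM neighbours lie between -0.45 and 1.30 while NEFM lies at -6.15.

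The genes whose log2 CPM followed MAP2 most closely over the 12 libraries, among 19935 genes, were MACF1, BTF3L4, NCOA7, RASSF9 and ITGA1, with Pearson's r between 0.991 and 0.994. MACF1, a large linker of actin and microtubules, averaged 598 CPM in induced and 724 CPM in uninduced cells of experiment 1, and 666 CPM in induced and 274 CPM in parental cells of experiment 2. Among the members MAP1B was nearest to MAP2 (r = 0.938) and NEFM farthest in the other direction (r = -0.918). The libraries fall into 4 groups and share their scaling, so these values are descriptions.

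Circular RNAs, which form when a downstream splice site joins an upstream one, were read from 2 of the 10 members and at the edge of detection. The tables listed 4 circular RNAs of MAPT and 1 of MAP2 with 9 back-splice reads in all, and none reached the 10 reads in 3 libraries needed for a test. All 4 from MAPT ended at position 44074030 of chromosome 17 (GRCh37), at exon 10 of isoform ENST00000262410. The longest, chr17:44049225-44074030, joined exons 3 to 10 and had 2 reads in induced replicate 2 of experiment 1. The one at chr17:44068826-44074030 joined exons 9 to 10 and had 1 read in the same library. In experiment 2, chr17:44064406-44074030 joined exons 7 to 10 with 2 reads in induced replicate 3, and chr17:44055741-44074030 joined exons 5 to 10 with 1 read in each of parental replicates 1 and 2. The MAP2 circle, chr2:210489777-210518156, joined exons 4 to 5 and had 2 reads in induced replicate 3 of experiment 2. No comparison of groups can be made from these reads.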

How the data were processed

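Total RNA of 12 HEK293 libraries was sequenced as paired-end reads with TruSeq RNA libraries on a NextSeq500, per the labels' protocols. STAR 2.5.2b and the build GRCh37/hg19 are named in the submitters' processing notes; the counter, the annotation, the circRNA caller and the strand setting are not given in the sources used here. The deposited tables hold raw read counts per gene and back-splice read counts per circRNA, as the authors made them, 1 table of each kind per experiment. Rows were matched by symbol (NEFL to none), and 23011 of 37184 rows in experiment 1 and 20675 of 31910 in experiment 2 carried a symbol in the files; others were named by identifier where the reference allowed.

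Low genes were left out by filterByExpr (at a count of 10 and a total of 15); the rest were scaled by TMM and tested with edgeR 4.0.16 (R 4.3.3) quasi-likelihood F tests, with Benjamini-Hochberg adjustment over all genes tested and a threshold of 0.05. Each experiment was fitted alone; the difference between experiments and the comparison of induced groups came from one fit over 12 libraries. The printed SE comes from the spread of log2 CPM (prior count 2) between libraries. DESeq2 1.42.0, other scalings and filters, fits without single libraries and a fit with the replicate number as a block were alternatives. CircRNAs were tested at 10 reads in 3 libraries. The tests were tried on simulated data. Gene counts carry counting error and the spread between libraries; intervals and floors, where given, cover counting error only. Named genes are all members, the 5 genes most like MAP2 over the libraries, and genes from the lists. Most list genes come from the up to 3 called genes per direction, list and experiment with the largest change. Not all of those are named, so a named gene need not be the one that changed most. Some markers, such as UCHL1, SLC1A3 and CDH2, are named for their level. The members and lists were chosen with earlier results of these data known. Sequences come from RefSeq (GRCh38.p14).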

Additional observations from a re-analysis of the deposited data

Results flagged for a closer look

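The changes of 4 members differed between the experiments in a test of the difference itself (edgeR's quasi-likelihood test over 12 libraries, adjusted over all genes). The change in experiment 2 minus that in experiment 1 was 4.70 on the log2 scale for MAP2 (adjusted p 5.15e-13), 2.06 for MAP1B (adjusted p 4.43e-09), 1.61 for INA (adjusted p 4.02e-11) and -5.19 for NEFM (adjusted p 1.72e-08). The contrasts are not alike: induced cells were set against uninduced cells of the same line in experiment 1 and against parental cells in experiment 2. Of all genes, 52.2% were called in this test.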

How the results depend on the processing

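Alternatives covered scaling, filters, DESeq2, removal of MT-RNR1, MT-RNR2 and RN7SK, one fit of all libraries, a replicate block and leaving out each library. The 6 calls in experiment 2 and the 4 called differences were kept in number under every alternative run, and the induced groups compared with each other gave 4 to 5. In experiment 1 the members called numbered 4 with all 12 libraries in one fit and 1 to 2 when 1 library was left out; all genes called numbered 3971 in the main fit, 2327 with the replicate block and 1581 to 5231 when 1 library was left out. Without induced replicate 1 there were 1581 calls, without induced replicate 3 there were 1678, and without uninduced replicate 2 there were 2104. Same-numbered libraries gave r of 0.194, -0.110 and 0.0194 in experiment 1, and differently numbered ones ran from -0.250 to 0.212. These values gave no sign that the numbers pair the samples, but so few libraries cannot exclude it. With the block 2 members were called in experiment 1. The block could not be fitted for the induced groups. Of 412 alternative values of single members, 399 kept direction and call, 3 lost a call, 4 gained one and 6 changed sign. The sign changes were TUBB3 in experiment 1 without uninduced replicate 2 (0.016), the TUBB3 difference without uninduced replicate 3 (0.076) and without experiment 2 induced replicate 1 (0.15), and, between the induced groups, MAPT (0.11) and TUBB3 (0.14) with library totals and TUBB3 without experiment 2 induced replicate 1 (0.27); the cause was not tested. Leaving out 1 library at a time, TUBB3 ranged from -0.47 to 0.016 in experiment 1, from -0.86 (without induced replicate 3) to -0.042 (without induced replicate 1) in experiment 2, from -0.67 to 0.15 for the difference and from -0.55 to 0.27 between the induced groups. With library totals the median of all genes between the induced groups was 0.18, and without a filter -0.12. The circRNAs of the members gave no value under a 5-read filter or back-splice totals, since none was tested. Depth limits NEFH, TUBB3, DCX and STMN2, which had few reads, and NEFM in experiment 1.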
